A study of Malus domestica with 6 samples.

Results

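Alcohol dehydrogenases (ADH) and aldehyde dehydrogenases (ALDH) act on the same substrates at a fork in the aroma pathways of apple fruits. The transcripts described here come from 7 such genes, the 3 ADH genes that lie outside the ADH cluster of chromosome 10 and the 4 ALDH genes, out of 46558 genes listed in the expression table. The members were picked by name from the genes that the study had called as differentially expressed between the cultivars in these same libraries. Their difference between the cultivars is therefore a description without p-values, and the calls counted below for the members are no evidence of it. RNA-seq was performed on the pulp of ripe, unbagged apples of Granny Smith, a cultivar with green skin, and Jonagold, a cultivar with red skin, with 3 libraries for each. The fruits of both cultivars came from trees on the same rootstock in one orchard and one season, and each library was made from several pooled fruits. The cultivar therefore cannot be told apart from anything else that differed between its pools. In bulk pulp, fewer cells of a type and less RNA per cell cannot be told apart either.

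ADH enzymes reduce aldehydes to alcohols with NADH or NADPH and can also run in reverse. In fruits the aldehydes come from lipoxygenase (LOX) and hydroperoxide lyase (HPL), from pyruvate decarboxylase (PD), which releases acetaldehyde, and from the breakdown of branched-chain amino acids, and the alcohols are joined to acyl groups by alcohol acyltransferase (AAT) to form esters. ALDH enzymes oxidise aldehydes to carboxylic acids with NAD+ or NADP+ and so take aldehydes away from alcohol formation. Both families have many members in plants, and a family name does not tell which aldehyde an enzyme prefers.

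MdADH-2 (MD13G1165800) and MdALDH-1 (MD13G1090800) and MdALDH-2 (MD13G1090600) carry identifiers of chromosome 13. MdADH-5 (MD05G1179800) lies on chromosome 5, MdADH-7 (MD06G1121600) on chromosome 6 and MdALDH-3 (MD02G1050000) on chromosome 2. MdALDH-4 (MD00G1029100) has an identifier of the unplaced part of the GDDH13 assembly. The names are those of the study. The reference gene table at hand held 0 of the 7 identifiers, so the family of each gene could not be checked by sequence, and no start, end or sequence is given.

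Expression is given in the deposited unit, FPKM, which is per length of transcript and so lets one gene be set beside another. Each FPKM value was a whole number of reads times a library constant and a gene constant, and the reads were recovered for 34278 of the 34279 genes above 0. They summed to between 17080764 and 17257525 in the Granny Smith libraries and to between 14192619 and 16352770 in the Jonagold libraries. In the study's own mapping, every Jonagold library had a smaller share of reads mapped than any Granny Smith library. The bearing of this on these totals was not tested. The library constant did not follow these totals, since 1 read was worth 0.942 to 1 in Granny Smith but 1.29 to 1.46 in Jonagold, relative to Granny Smith replicate 1, so the columns carry a scaling other than by read number. The FPKM totals were not equal, with 554856 to 599617 in Granny Smith against 755644 to 800812 in Jonagold. Log2 fold changes are Jonagold over Granny Smith on log2(FPKM + 1), a scale that understates changes of scarce transcripts. Made equal in total, the libraries gave all tested genes a median log2 fold change of -0.35 in place of 0.00, so that levels in Jonagold were lower relative to Granny Smith under such scaling. Scaling each library by its median ratio to the geometric means of genes above 0 throughout kept this median at 0.00.

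The 7 genes split by direction. In MdADH-2, MdALDH-2 and MdALDH-4 every Jonagold library was above every Granny Smith library, and in MdADH-5, MdADH-7, MdALDH-1 and MdALDH-3 every Jonagold library was below. The same absence of overlap was seen in 59.6% of the 20993 genes whose mean reached 1 FPKM. Of the members, 6 of 7 reached this mean, and limma called all 6 at an adjusted p-value below 0.05 and at least 2-fold, 3 of them higher and 3 lower in Jonagold. Among all genes tested 21.3% were called, 12% higher and 9.34% lower. Nothing is read from this comparison, because the same libraries chose the members. The study also measured MdADH-5 and MdALDH-1 by qRT-PCR. It reported that the genes measured this way were higher in Jonagold, apart from ADH and ALDH. Those measurements were not used here.

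**Figure D1:**
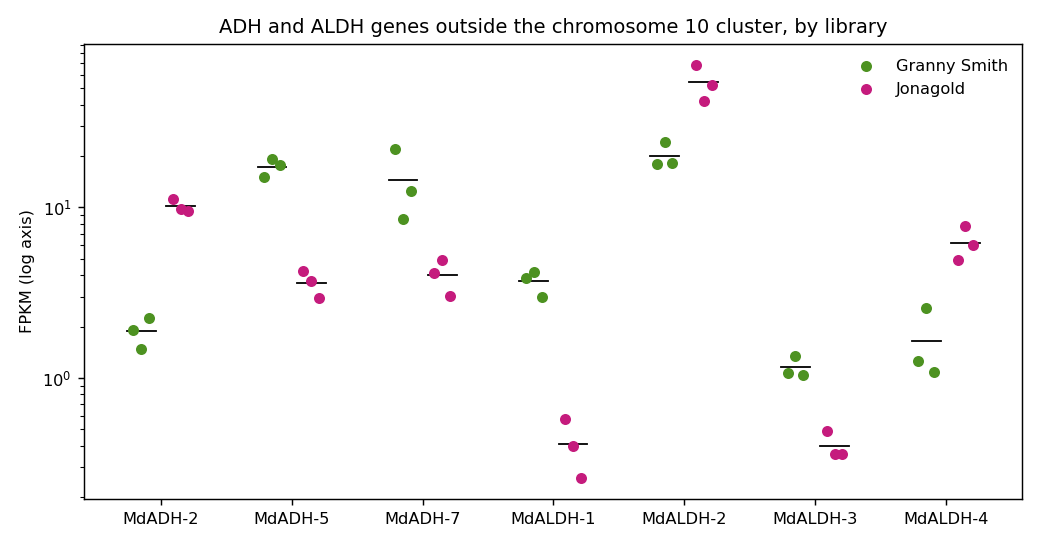
FPKM of the 7 genes on a log axis, with 1 point for each library and a line at the mean of the 3 libraries of a cultivar. The points of the cultivars do not overlap in any gene, and MdALDH-2 has the highest mean in both.

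Among the ADH genes, MdADH-2 was the one with the higher level in Jonagold. It measured 1.91, 1.49 and 2.26 FPKM in Granny Smith replicates 1, 2 and 3 and 11.3, 9.82 and 9.54 FPKM in the Jonagold replicates. The lowest Jonagold library was thus far above the highest Granny Smith library. The ratio of mean FPKM was 5.42 and the log2 fold change 1.96 (standard error 0.15). Behind them stood 57 to 88 reads in each Granny Smith library and 240 to 286 in each Jonagold library. The Jonagold libraries lay close together, with a coefficient of variation of 9.07%, against 20.6% in Granny Smith.

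MdADH-5, another predicted enzyme of alcohol formation, went the other way by a similar amount. Its level was 15.1, 19.1 and 17.7 FPKM in the Granny Smith replicates and 4.24, 3.70 and 2.92 FPKM in the Jonagold replicates. Granny Smith was higher by a ratio of 4.78, and the log2 fold change was -1.99 (standard error 0.15). The spread was narrow in Granny Smith, where 520 to 689 reads were counted per library, and the gap between the cultivars was wider than the range within either.

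MdADH-7 was also lower in Jonagold, but its Granny Smith libraries were uneven. The 3 replicates measured 22.1, 8.59 and 12.5 FPKM, and the Jonagold replicates 4.14, 4.93 and 3.03 FPKM. Granny Smith replicate 1 stood at 2.10 times the mean of the other 2, a ratio that 5.04% of the tested genes reached in Granny Smith. The ratio of the cultivar means was 3.57 and became 2.61 without that library. The log2 fold change was -1.53 (standard error 0.30), the largest standard error of the 7 members. With 298 to 734 reads per Granny Smith library, counting error was 4.52%, whereas the coefficient of variation was 48.4%.

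Of the ALDH genes, whose enzymes oxidise aldehydes, MdALDH-1 measured 3.87, 4.16 and 3.0 FPKM in the Granny Smith replicates and 0.575, 0.398 and 0.258 FPKM in the Jonagold replicates. Its ratio of means, 8.96 in favour of Granny Smith, was the largest of the 7 members, although on log2(FPKM + 1) its fold change of -1.73 (standard error 0.17) was smaller than that of MdADH-5. Only 18, 14 and 8 reads stood behind the Jonagold values, and leaving out any 1 library gave ratios between 7.56 and 11.2.

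MdALDH-2 had the highest mean of the members in both cultivars. It measured 17.9, 24.1 and 18.1 FPKM in the Granny Smith replicates and 68.7, 42.0 and 52.0 FPKM in the Jonagold replicates. The ratio of means was 2.70 in favour of Jonagold and the log2 fold change 1.38 (standard error 0.19). At 824 to 2186 reads per library this was the most deeply covered of the 7 genes. Jonagold replicate 1 was the highest library and Jonagold replicate 2 the lowest of that cultivar, and both lay above all Granny Smith libraries. In Jonagold its mean was above 94.2% of the genes detected in any library. With equal FPKM totals the log2 fold change was 0.98, just under the 2-fold criterion, and the gene was not called.

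MdALDH-3 had the lowest mean in both cultivars, in Jonagold by less than the spread between libraries of MdALDH-1. It measured 1.07, 1.35 and 1.04 FPKM in the Granny Smith replicates and 0.488, 0.355 and 0.358 FPKM in the Jonagold replicates, on 35 to 46 and 8 to 11 reads. Its mean over the 6 libraries, 0.778 FPKM, kept it out of the test. Granny Smith was higher by a ratio of 2.88, whereas the log2 fold change was only -0.62 (standard error 0.11, from the fit without a minimum mean).

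MdALDH-4 was higher in Jonagold, at 4.89, 7.74 and 5.99 FPKM against 1.26, 2.57 and 1.09 FPKM in the Granny Smith replicates. The ratio of means was 3.79 and the log2 fold change 1.47 (standard error 0.24). Granny Smith replicate 2 was 2.19 times the mean of the other 2 Granny Smith libraries, as far apart as in 4.51% of the tested genes, and without it the ratio of the cultivar means was 5.28. The highest Granny Smith library still lay below the lowest Jonagold library.

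The spread between replicates could be set beside counting error. Counting error was taken as 1 over the square root of the mean reads per library. In 12 of the 14 combinations of gene and cultivar the coefficient of variation exceeded it. The remaining 2 were both of MdALDH-3, with 14.7% against a counting error of 16.0% in Granny Smith and 18.9% against 32.7% in Jonagold. The spread of MdADH-7 and MdALDH-4 in Granny Smith was larger than in 93.7% and 93.9% of the tested genes. Granny Smith replicate 2 was the highest Granny Smith library for 5 of the 7 members, namely MdADH-5 and all 4 ALDH genes, whereas it was the highest for 35.7% of the tested genes. In Jonagold, replicate 1 was the highest for 5 members and for 40.9% of the tested genes.

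**Figure D2:**
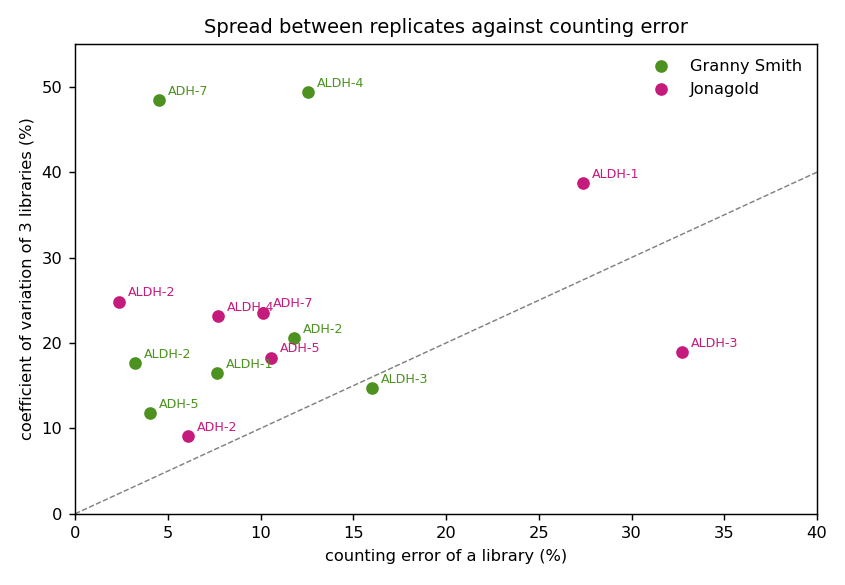
Coefficient of variation of the 3 libraries of a cultivar, in percent, against the counting error of a library, in percent, with 1 point for each gene and cultivar and a dashed line where both are equal. MdADH-7 and MdALDH-4 in Granny Smith lie far above the line at 48.4% and 49.3%, and the points of MdALDH-3 lie below it.

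The order of the 7 FPKM levels differed between the cultivars below the first place. In Granny Smith the order was MdALDH-2, MdADH-5, MdADH-7, MdALDH-1, MdADH-2, MdALDH-4 and MdALDH-3. The ranges of MdALDH-2 and MdADH-5 overlapped there, as did those of MdADH-5 and MdADH-7, of MdADH-2 and MdALDH-4 and of MdALDH-4 and MdALDH-3. Within libraries, MdALDH-2 was above MdADH-5 and MdALDH-4 above MdALDH-3 in 3 of 3, whereas the other 2 overlapping pairs kept their order in 2 of 3. MdADH-7 and MdALDH-1 were set apart, and so were MdALDH-1 and MdADH-2. In Jonagold the order was MdALDH-2, MdADH-2, MdALDH-4, MdADH-7, MdADH-5, MdALDH-1 and MdALDH-3. MdALDH-2 stood alone at 54.2 ± 13.5 FPKM (SD, n = 3), followed by MdADH-2 at 10.2 ± 0.925 FPKM, and neither overlapped with the next gene. MdALDH-4 and MdADH-7 overlapped but kept their order in 3 of 3 libraries. MdADH-7 and MdADH-5 overlapped, as did MdALDH-1 and MdALDH-3, and these pairs kept their order in 2 of 3.

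Summed over the genes that the study had called, the ADH genes were lower and the ALDH genes higher in Jonagold. These sums leave out every family member that was not called, so they do not describe the families as a whole. The 7 ADH genes together measured 134, 178 and 144 FPKM in the Granny Smith replicates and 35.0, 24.9 and 24.4 FPKM in the Jonagold replicates. The 3 dispersed ADH genes summed to 33.6 ± 5.07 FPKM in Granny Smith against 17.9 ± 2.13 in Jonagold (SD, n = 3), while the sum of the 4 genes of chromosome 10 was 118 ± 27.8 against 10.3 ± 4.60 FPKM. The dispersed genes therefore made up 29.2%, 16.4% and 22.6% of the sum of these 7 ADH genes in the Granny Smith replicates and 56.1%, 73.9% and 63.6% in the Jonagold replicates. MdADH-2 alone accounted for 1.28 ± 0.391% of the ADH sum in Granny Smith and 36.9 ± 4.10% in Jonagold. The shares of MdADH-5 overlapped between the cultivars, at 11.4 ± 0.800% in Granny Smith against 13.0 ± 1.61% in Jonagold, since its level was lower in Jonagold by about as much as the sum.

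The 4 ALDH genes together measured 26.5 ± 4.95 FPKM (SD, n = 3) in Granny Smith and 61.3 ± 12.3 FPKM in Jonagold. MdALDH-2 held 75.7 ± 1.95% of this sum in Granny Smith against 88.0 ± 4.47% in Jonagold. MdALDH-1 contributed 13.9 ± 1.80% in Granny Smith but 0.666 ± 0.196% in Jonagold. MdALDH-4 held 5.96 ± 1.76% and 10.7 ± 4.40%, and these shares overlapped between libraries. Shares within a library do not depend on how the library was scaled.

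**Figure D3:**
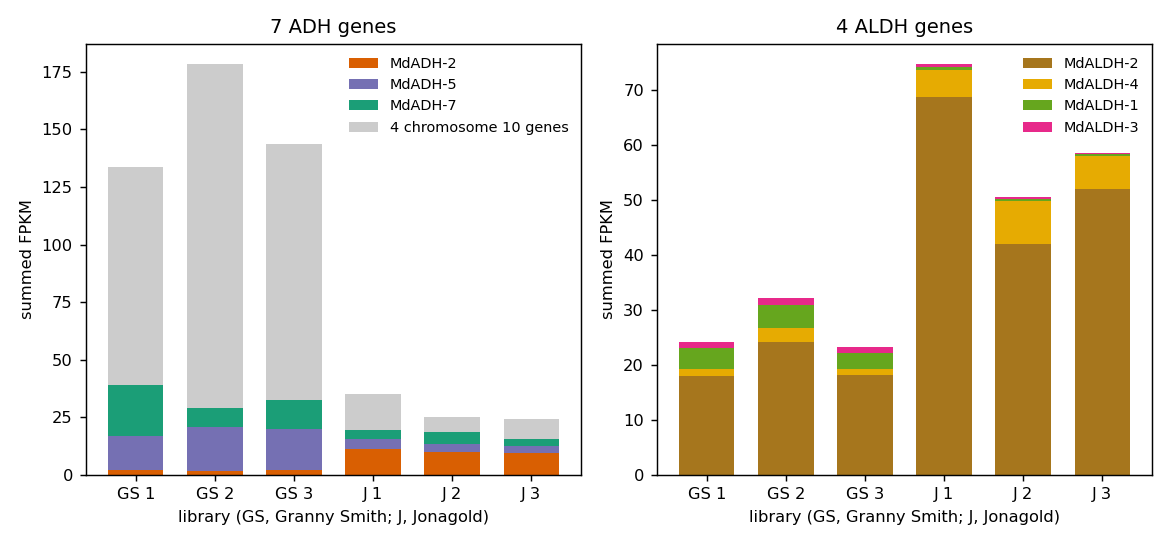
Summed FPKM of the 7 ADH genes (left) and the 4 ALDH genes (right) in each library, stacked by gene from 0, with the 4 ADH genes of chromosome 10 as 1 grey segment. The ADH bars reach 134 to 178 FPKM in Granny Smith and 24.4 to 35.0 in Jonagold, where MdADH-2 is the largest dispersed segment, and the ALDH bars are mostly MdALDH-2.

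MdALDH-1 and MdALDH-2 lie close together, with 1 listed identifier between them, yet they differed in opposite directions. MdALDH-2 exceeded MdALDH-1 by 4.64, 5.80 and 6.04 times in the Granny Smith replicates and by 120, 106 and 202 times in the Jonagold replicates. The gene between them was listed at 0 in all Jonagold libraries and was close to 0 in Granny Smith. Whether the pair is similar enough in sequence to share reads was not tested, and how the authors' counting would have assigned such reads is not given in the sources used here. Among the ADH genes, MdADH-5 exceeded MdADH-2 by 7.91, 12.9 and 7.83 times in the Granny Smith replicates. In the Jonagold replicates the ratio was 0.376, 0.377 and 0.306, so that MdADH-2 was the more abundant of the pair in all 3.

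**Figure D4:**
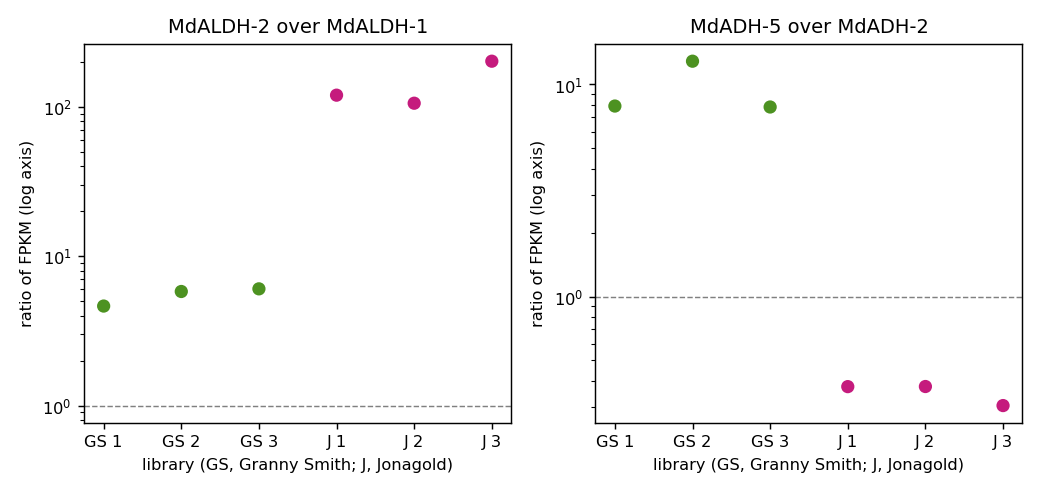
Ratio of FPKM between members within each library, on log axes, with a dashed line at 1. MdALDH-2 over MdALDH-1 (left) is 4.64 to 6.04 in Granny Smith but 106 to 202 in Jonagold, and MdADH-5 over MdADH-2 (right) lies above 1 in Granny Smith and below 1 in Jonagold.

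The genes beside the members were not used to choose them and could be tested. The 3 listed identifiers before and after each member placed on a chromosome gave 31 neighbours, of which 16 reached a mean of 1 FPKM. Of these 16, limma called 3 higher and 1 lower in Jonagold, a share close to the 21.3% called among all genes. MdADH-2 had 2 of the called neighbours, both higher in Jonagold like MdADH-2 itself. One of them, MD13G1166000, was at 7.92 ± 0.395 FPKM in Granny Smith and rose to 19.6 ± 2.24 in Jonagold (SD, n = 3), and limma gave a log2 fold change of 1.20 with a standard error of 0.12 and an adjusted p of 9.2e-05. MD13G1091100, beyond MdALDH-1, was at 38.6 ± 5.47 FPKM in Granny Smith and fell to 14.0 ± 0.468 in Jonagold (SD, n = 3), where limma gave -1.39 with a standard error of 0.13 and an adjusted p of 5.4e-05. Neither identifier has a gene name in the sources used here. The fourth called neighbour, 2 places from MdALDH-3, was higher in Jonagold, whereas MdALDH-3 was lower. Its Jonagold libraries spread widely, at 26.9 ± 17.6 FPKM against 10.7 ± 1.01 in Granny Smith (SD, n = 3). For this neighbour limma gave 1.08 with a standard error of 0.35 and an adjusted p of 0.034. None of the 4 tested neighbours of MdADH-5 and none of the 4 of MdADH-7 were called by limma. Of them, 2 and 2 had an adjusted p-value below 0.05 at less than 2-fold. At any fold change, 10371 of the 20993 genes tested had such an adjusted p-value. With equal FPKM totals MD13G1091100 alone was called, and MD13G1166000 was at 0.83.

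**Figure D5:**
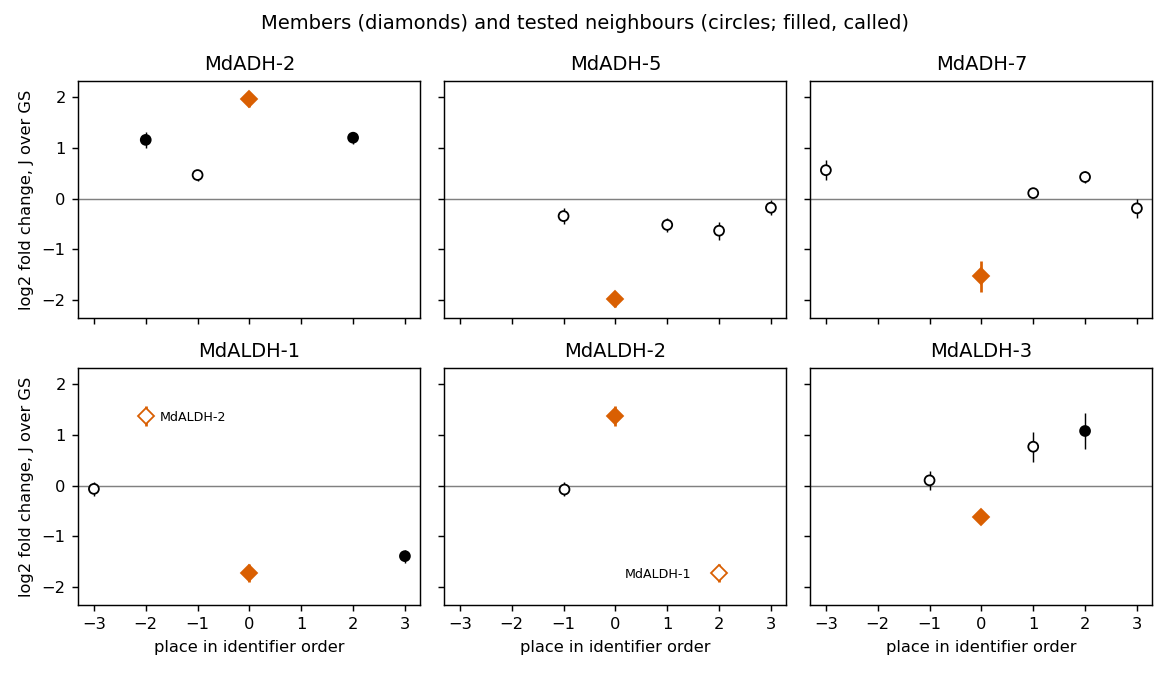
Log2 fold change of Jonagold over Granny Smith for 6 members (filled diamonds) and their tested neighbours (circles, filled where limma called them) by place in identifier order, with bars of 1 standard error; in the panels of MdALDH-1 and MdALDH-2 the open diamond is the other of the pair. MdADH-2 has called neighbours on both sides in its own direction, neither of them called with equal FPKM totals. The neighbours of MdADH-5 and MdADH-7 stay within the 2-fold criterion.

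The other genes that the study named for these steps were chosen on the same libraries, so their counts are no independent evidence of direction. Upstream of the aldehydes, limma called 8 of 9 tested LOX genes higher in Jonagold, and 5 of 9 with equal FPKM totals. The single HPL gene was at 0.641 ± 0.381 FPKM (SD, n = 3) in Granny Smith against 2.17 ± 0.144 FPKM in Jonagold. At a log2 fold change of 0.98 it was not called, but with a pseudocount of 0.1 FPKM it was, as were all 35 tested genes of these lists. Over all 20993 genes tested, that pseudocount gave 5566 calls in place of 4475. MdPD-4 was called higher in Jonagold, from 195 ± 83.3 to 1239 ± 148 FPKM (SD, n = 3), while MdPD-1, MdPD-2 and MdPD-3 were called lower, with log2 fold changes of -2.72, -1.83 and -1.83. The 1 tested gene of branched-chain aminotransferase was called higher, at a log2 fold change of 1.01, and was not called with equal FPKM totals, at 0.81. All 4 ADH genes of chromosome 10 were called lower, with a median log2 fold change of -3.29 against 0.00 over all genes tested. Downstream, 7 of 8 tested AAT genes were called higher, with a median of 1.93, and the carboxylesterase genes, whose enzymes cleave esters, were called higher in 5 and lower in 3 of 8.

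For each member the most similar of the 93 other named genes was sought by Pearson r of log2(FPKM + 1) over the 6 libraries. Because 6 libraries in 2 cultivars share the cultivar difference, an absolute r of at least 0.9 was reached by between 10.6% (MdADH-7) and 34.8% (MdADH-2) of all tested genes, and r is given as a description only. MdADH-2 was nearest to MdACC-2, a gene of acetyl-CoA carboxylase (r = 0.9975), with 13 other tested genes at least as similar. MdADH-5 and MdALDH-1 were both nearest to MdTS-1, a gene of threonine synthase (r = 0.9973 and 0.9924). MdALDH-3 was nearest to MdADH-4 of chromosome 10 (r = 0.9925), MdALDH-2 to MdLOX-11 (r = 0.9841) and MdALDH-4 to the carboxylesterase gene MdCXE-8 (r = 0.9761). MdADH-7 had the lowest such value, 0.9584, with MdCCoAR, a gene of cinnamoyl-CoA reductase. The number of other tested genes at least as similar was 14 for MdADH-5, 28 for MdALDH-3, 77 for MdALDH-1, 110 for MdALDH-2, 165 for MdADH-7 and 192 for MdALDH-4.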

How the data were processed

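RNA-seq libraries of apple pulp, 3 of Granny Smith and 3 of Jonagold, were compared. After read filtering and mapping to the GDDH13 genome, the authors quantified genes with Cufflinks and deposited 1 FPKM column per library. Values headed FPKM in the study's supplement differ in size from these columns for the same genes and libraries. For each member they differed by a factor that was the same in all libraries but not the same for every gene. Ratios of a member between libraries were therefore the same in both, apart from rounding. Within a library, the supplement's values of the members were the recovered reads times a factor shared by all members, apart from rounding. For the members they were thus scaled reads without division by length. Only the deposited columns were used. The submitters' processing notes name Bowtie 0.12.2 and the mouse builds mm8 and mm9 instead, whereas the identifiers are those of apple. Groups and replicate numbers were taken from the labels.

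Whole reads were recovered from the FPKM values within 0.02 of a read, taking the smallest whole numbers that fitted all 6 values of a gene. Counting errors cover counting only. Cultivars were compared with limma 3.58.1 (R 4.3.3), lmFit and eBayes with trend, on log2(FPKM + 1) over genes whose mean reached 1 FPKM, with Benjamini-Hochberg adjustment over all 20993 genes tested. A call needed an adjusted p-value below 0.05 and a fold change of at least 2. The deposited values are not counts, and no count model was fitted to the recovered reads. The fit and the recovery were tested on simulated data. Sums, ratios and figures were made in Python 3.11.15 with numpy 2.4.6, pandas 2.3.3 and matplotlib 3.10.9.

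The 7 members, the gene lists, the neighbours (3 identifiers on each side) and the rule for named genes (the members, the most similar named gene of each, the called neighbours with the largest and the lowest log2 fold change, and the HPL and PD genes) were chosen with earlier results of these data known. The alternatives were other minimum means, another pseudocount, other scalings, other tests, a replicate block, and each library left out in turn.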

Additional observations from a re-analysis of the deposited data

How the results depend on the processing

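None of the 7 members reversed its log2 fold change in the 16 alternatives tried for each. Of the 112 values, 102 lay within 1 SD of replicates of the main one. Many of these agreed by construction, because other minimum means, other tests and a replicate block cannot change a member's log2 fold change. Only the pseudocount, the scalings and the left-out libraries could move it. With a pseudocount of 0.1 FPKM the log2 fold changes were larger in size, at 2.39 for MdADH-2, -2.24 for MdADH-5, -2.92 for MdALDH-1, -1.33 for MdALDH-3 and 1.93 for MdALDH-4. With equal FPKM totals they were 1.65 for MdADH-2, -2.34 for MdADH-5, -1.95 for MdALDH-1, 0.98 for MdALDH-2 and -0.79 for MdALDH-3, and Jonagold over Granny Smith was 0.140 for the sum of the 7 ADH genes, 0.401 for that of the 3 dispersed ADH genes and 1.75 for that of the 4 ALDH genes, against 0.185, 0.532 and 2.31 in the deposited values. The calls over all genes, 2515 higher and 1960 lower, were then split into 1772 higher and 3426 lower, and 5 members, 1 neighbour and 27 of the other listed genes were called.

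Of all genes, 4475 were called. The number was 2533 with a minimum mean of 5 FPKM, 10371 by the adjusted p-value alone and 2066 when limma's treat tested for a change beyond 2-fold. By treat, 3 members, 0 neighbours and 21 of the other listed genes were called, against 6, 4 and 32. By the adjusted p-value alone 9 of 16 neighbours passed, beside 10371 of the 20993 genes tested. The 0 by treat stands beside 2066 of the same genes. With any 1 library left out, 4346 to 4607 of all genes were called. The number of members called was then 6, and neighbours numbered 3 to 4. The members were chosen on these same libraries, so their count is no evidence of stability. Deviations from the cultivar mean correlated at 0.164, 0.28 and -0.0313 between equally numbered libraries, against -0.25 to 0.106 between unequally numbered ones. These values do not settle whether the replicate numbers pair the libraries. With a replicate block 4501 genes and the same number of members, 6, were called. Depth limits MdALDH-1 and MdALDH-3 most, with 8 to 18 reads per Jonagold library.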
